A study of Homo sapiens and Mus musculus with 4 samples.

Results

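AXL, F3, NT5E and GADD45A are 4 genes of the expression signature used to read out activity of YAP in tumours, and they were described here by the TEAD-bound regions around their transcription starts. A region was taken as near a gene when its midpoint lay within 100 kb of the start. By this rule 20 of the 22681 TEAD peaks of RD cells and 38 of the 47033 TEAD peaks of YAP-ERMS cells were near the 4 genes, or 58 of 69714 in all. The starts were given to the nearest 1 kb, on hg19 at 41.725 Mb of chromosome 19 for AXL, 95.007 Mb of chromosome 1 for F3, 86.159 Mb of chromosome 6 for NT5E and 68.151 Mb of chromosome 1 for GADD45A. On mm9 they were at 26.574 Mb of chromosome 7 for Axl, 121.426 Mb of chromosome 3 for F3, 88.222 Mb of chromosome 9 for Nt5e and 66.987 Mb of chromosome 6 for Gadd45a. The genes were chosen by name, so the peaks around them were not used to choose them, but the choice was made with results of these peak lists known. Whether the genes were expressed cannot be checked from lists of peaks.

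The study profiled TEAD by chromatin immunoprecipitation and sequencing (ChIP-seq) in 4 libraries, each the 1 library of its group. RD, a human embryonal rhabdomyosarcoma cell line, gave a TEAD library and an IgG library as its control, and YAP-ERMS, mouse cells from tumours driven by YAP, gave a TEAD library and an input library as its control. The labels give the tumours as raised with Myf5-Cre or Pax7-CreER, drivers active in muscle progenitors and in satellite cells, and do not say which driver gave the cells sequenced. There were no replicates, how deeply the libraries were sequenced is not recorded in the lists, and the 2 lists differ in species, control and possibly depth, so every value below describes 1 list and no difference between the lists was tested.

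TEAD proteins bind DNA but activate transcription mainly through partners such as YAP and TAZ, which enter the nucleus when the Hippo kinase cascade is off. Much of their binding in other cells lies at enhancers away from promoters, often beside AP-1 sites. AXL is a receptor tyrosine kinase for the ligand GAS6. F3 encodes tissue factor, the membrane receptor that starts blood coagulation. NT5E encodes CD73, an enzyme on the cell surface that makes adenosine from extracellular AMP. GADD45A is a small nuclear protein induced by DNA damage and growth arrest.

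The sequence before a start is shown for the gene with a peak at its human start, AXL, and for the gene with no RD peak within 25 kb of its start, F3. They are from RefSeq on GRCh38.p14, in which 3 of the 4 human genes matched by symbol, with 4 entries. Each is the 250 bases before the start, 5′ to 3′ on the strand of the gene. Capitals mark the TEAD motif (GGAATG, or CATTCC on the other strand) or the AP-1 motif (TGANTCA, which reads the same on both strands), and no match of one overlapped a match of the other.
AXL, first start, chr19:41218973-41219222 (+): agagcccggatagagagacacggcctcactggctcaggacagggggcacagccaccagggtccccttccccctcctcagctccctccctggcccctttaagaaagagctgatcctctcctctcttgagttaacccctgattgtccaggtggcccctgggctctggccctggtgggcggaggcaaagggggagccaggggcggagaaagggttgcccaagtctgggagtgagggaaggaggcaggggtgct
AXL, second start, chr19:41226505-41226754 (+): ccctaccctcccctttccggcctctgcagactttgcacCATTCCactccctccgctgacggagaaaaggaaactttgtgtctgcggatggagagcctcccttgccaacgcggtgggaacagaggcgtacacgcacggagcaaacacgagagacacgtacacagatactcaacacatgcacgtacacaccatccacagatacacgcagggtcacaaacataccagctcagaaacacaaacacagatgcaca
F3, chr1:94541760-94542009 (-): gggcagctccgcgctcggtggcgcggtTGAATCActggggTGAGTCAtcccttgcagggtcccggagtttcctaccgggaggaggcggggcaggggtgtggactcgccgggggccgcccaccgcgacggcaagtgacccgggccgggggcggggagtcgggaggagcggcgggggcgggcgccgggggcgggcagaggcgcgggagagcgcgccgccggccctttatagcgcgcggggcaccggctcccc
The first AXL sequence held neither motif, and the second held 1 TEAD motif, 212 to 207 bases before the start. The F3 sequence held 2 AP-1 motifs, TGAATCA at 223 to 217 bases and TGAGTCA at 210 to 204 bases before the start, and no TEAD motif. The NT5E sequence held neither. Over the 35114 promoter sequences of the same length in that table, 11.9% held the TEAD motif and 6.57% the AP-1 motif, and a match or its absence in these windows is a description of the letters.

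All 4 genes had at least 1 TEAD peak within 100 kb in both cell types. Of all 200 kb stretches (tiles) of the genome, 48.9% held a peak in RD and 69.2% in YAP-ERMS. In RD, GADD45A had 7 peaks, NT5E 6, AXL 5 and F3 2, against a mean of 1.49 per tile. As many peaks or more were held by 4.79% of tiles for GADD45A, 7.0% for NT5E, 9.92% for AXL and 31.6% for F3. In YAP-ERMS, F3 and Nt5e had 11 peaks each, Gadd45a 10 and Axl 6, against a mean of 3.56 per tile. As many or more were held by 7.06% of tiles for F3 and Nt5e, 9.38% for Gadd45a and 26.1% for Axl. Tiles include deserts with few genes, so these shares place a locus in the genome and do not compare it with other genes.

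**Figure D1:**
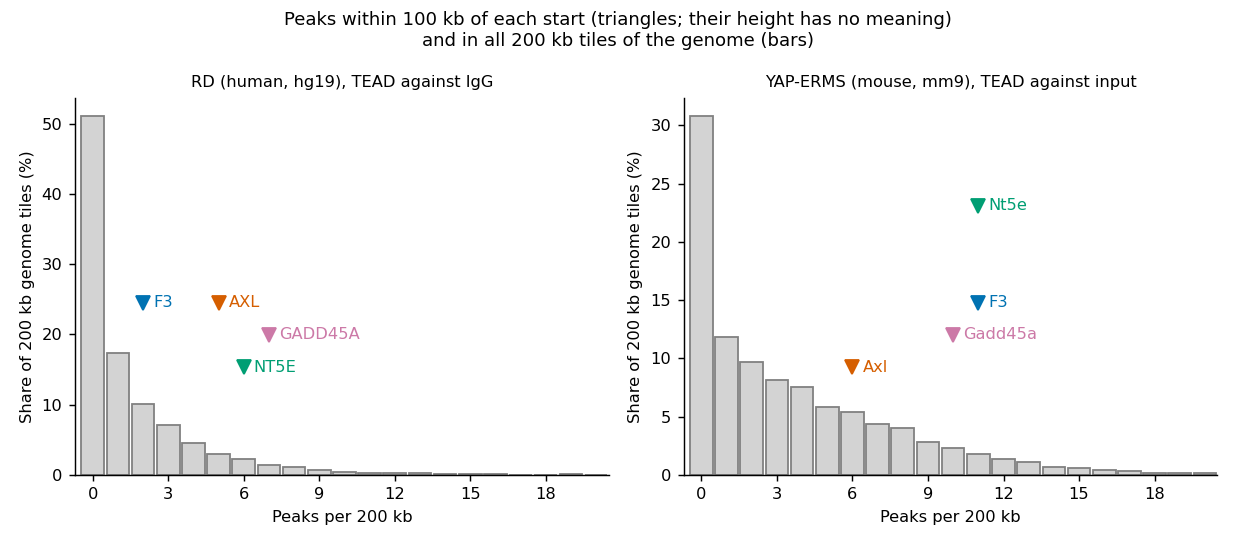
Peaks within 100 kb of each gene start (triangles, read on the x axis; their height has no meaning) and the share of all 200 kb genome tiles with each number of peaks (bars, in percent), for RD on the left and YAP-ERMS on the right. F3 had the fewest of the 4 in RD (2 peaks) and shared the most in YAP-ERMS (11 peaks); tiles with more than 20 peaks are off the axis.

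Within 100 kb of the starts, AXL and NT5E had the highest scoring peaks of the 4 genes in both lists. The deposited score starts at 80 and was taken to be 10 times the peak's −log10 p, and since such a score depends on depth and control it was ranked only within a list. By their highest peak the RD genes ran AXL (rank 452 of 22681), NT5E (rank 650), GADD45A (rank 1687) and F3 (rank 12078). In YAP-ERMS the order was Nt5e (rank 134 of 47033), Axl (rank 1196), F3 (rank 4491) and Gadd45a (rank 6040). With a window of 200 kb F3 came before Axl in YAP-ERMS, through a peak of score 2040 and rank 623. With 1 library per group it cannot be said which neighbours in either order differ. In RD 3 of the 4 genes had a peak in the top 10% of the list, against 11.4% of tiles. In YAP-ERMS 3 of the 4 did, against 23.4% of tiles. The YAP-ERMS count fell to 2 within 50 kb, and also to 2 with peaks within 1 kb joined. The gene lost was F3, whose highest peak stood at 9.55% of the list. Tiles were not matched to the windows by number of peaks. Among single peaks, 6 of the 20 in RD (30%) and 4 of the 38 in YAP-ERMS (10.5%) were in the top 10% of their list. A score above the list's median was held by 13 of 20 peaks in RD and 18 of 38 in YAP-ERMS, where the background is 50% in each list.

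**Figure D2:**
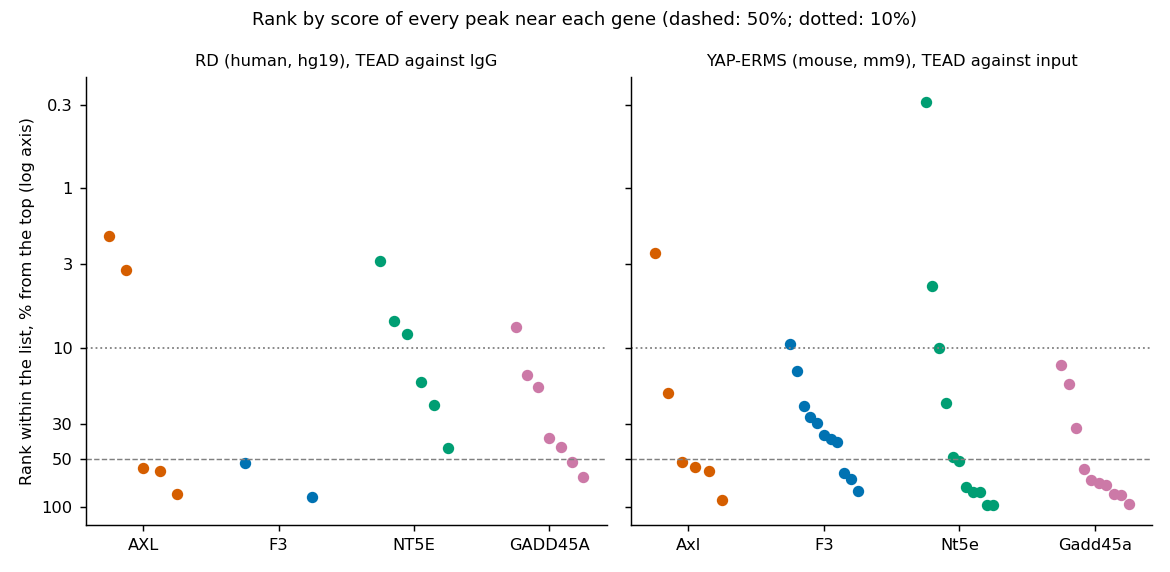
Rank by score of every peak near each gene, as percent from the top of its own list (log axis, highest scores at the top), for RD on the left and YAP-ERMS on the right; each point is 1 peak, spread sideways by rank. The Nt5e peak at 0.285% stands highest, and both RD peaks of F3 lie below the middle of the list.

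AXL, the receptor tyrosine kinase, had its highest peak a few kb downstream of its start in both cell types. In RD 3 peaks lay together within 7.79 kb. The first, at chr19:41724740-41725046 (hg19), had its midpoint 0.11 kb upstream of the start, less than the rounding of that start, and was weak, with a score of 99.7 and rank 18910. The next, at chr19:41729173-41729870, lay 4.52 kb downstream with a score of 1505, the highest of the RD peaks near the 4 genes. The third, at chr19:41731522-41732531, lay 7.03 kb downstream with a score of 1253 and rank 740. In RD the peak at the AXL start was therefore the weakest of the gene's 5 peaks, and its strong peaks both lay downstream.

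The third RD peak of AXL ran from 6.52 to 7.53 kb downstream of the start. The 2 AXL starts in RefSeq lie 7532 bp apart on GRCh38.p14, so by distance the sequence printed for the second start, with its CATTCC, falls at the far end of this peak. The builds were not converted and the start is rounded to 1 kb, so this is a match of distances and not a mapped overlap. The other RD peaks of AXL, at 89.6 and 91.4 kb downstream, had scores of 163 and 155. By order on the human chromosome the coding genes next to AXL are CYP2S1 upstream and HNRNPUL1 downstream, and their positions on hg19 were not used here.

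In YAP-ERMS the highest Axl peak, at chr7:26565335-26569562 (mm9), lay 6.55 kb downstream of the start, with a score of 1624 and rank 1196. It was 4228 bp wide, 2.54 times the median of its list at matched score, and 54 of the 47033 peaks were as wide or wider. It reached from 4.44 to 8.67 kb downstream. The second, at chr7:26577676-26578784, lay 4.23 kb upstream with a score of 525. The other 4 lay in 2 pairs farther upstream, at 38.4 and 43.2 kb with scores of 163 and 196, and at 73.6 and 78.7 kb with scores of 93.2 and 177. Within 100 kb, the strong peaks of the gene were thus 4.52 and 7.03 kb downstream in RD and 6.55 kb downstream in YAP-ERMS. The weaker distant ones inside that limit lay downstream in RD and upstream in YAP-ERMS.

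**Figure D3:**
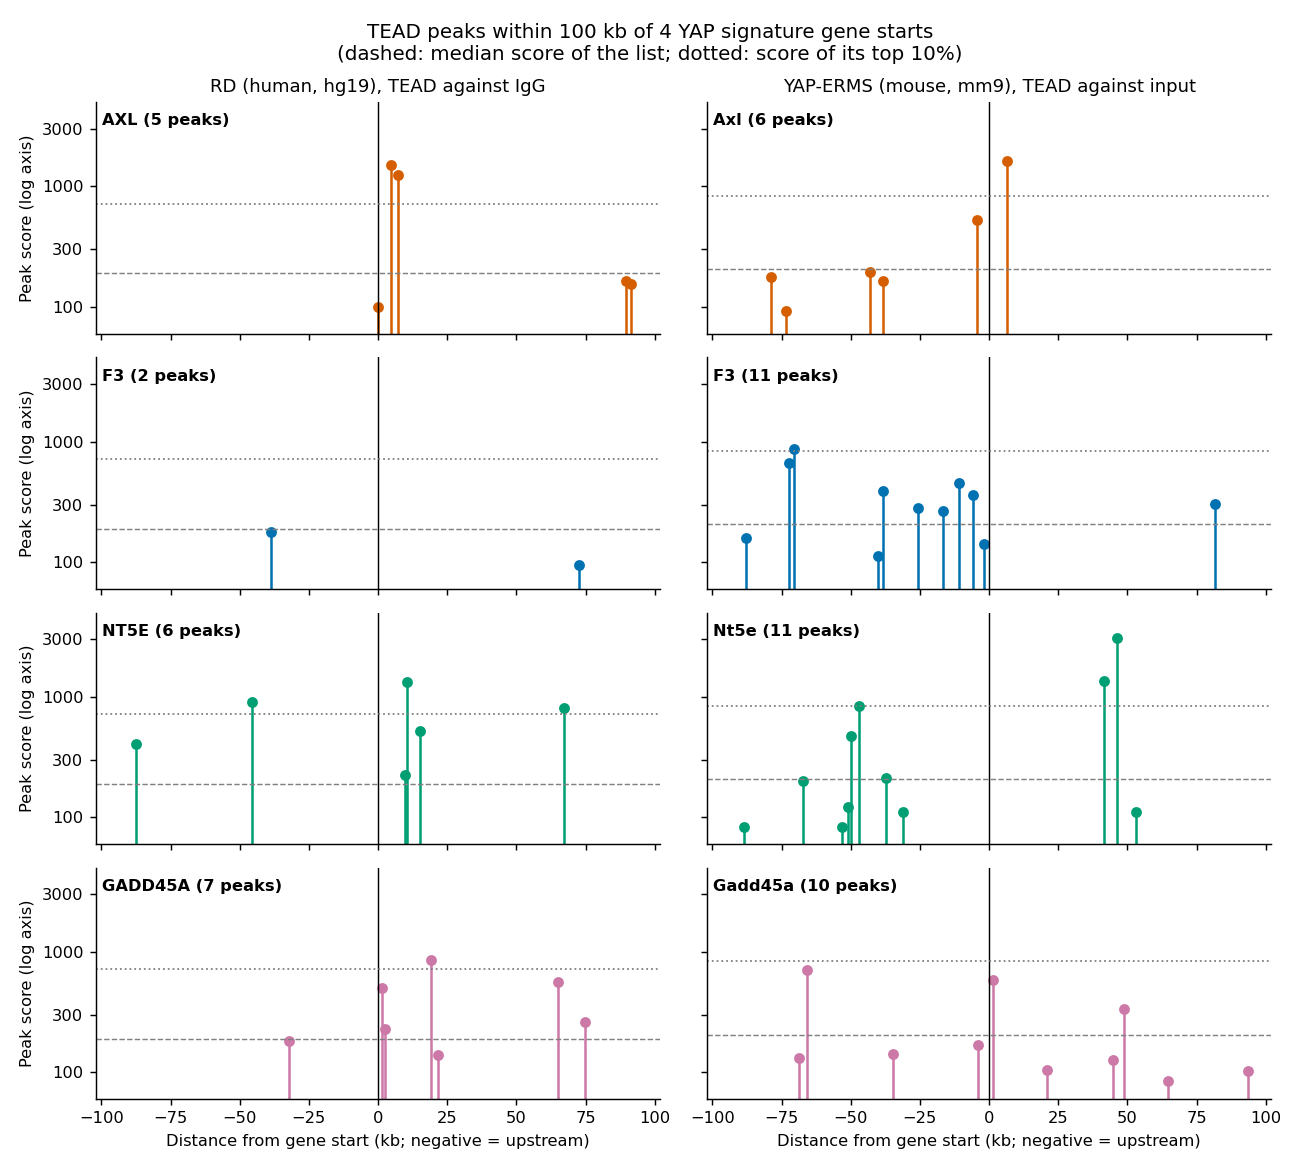
Score of every TEAD peak (y, log axis) by the distance of its midpoint from the gene start (x, in kb along the gene's strand, negative upstream), for the 4 genes in RD on the left and in YAP-ERMS on the right. Dashed and dotted lines are the median and the top 10% score of each list, which were 189 and 715 in RD and 205 and 835 in YAP-ERMS; the strong AXL peaks sit just right of the start in both, and 10 of the 11 F3 peaks of YAP-ERMS sit left of it.

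F3, the gene of tissue factor, had 2 weak peaks in RD, and in YAP-ERMS a run of peaks that led up to its start. In RD it had 1 peak 38.6 kb upstream, at chr1:95045471-95045769 (hg19) with a score of 176, and 1 peak 72.4 kb downstream, at chr1:94934427-94934692 with a score of 94.8. Both scored below the median of the list, 189, and no RD peak lay within 25 kb of the start. At 29.5% of positions taken every 10 kb over the genome, the nearest RD peak was as close or closer than the 38.6 kb found for F3. Such positions, like the tiles, are not gene starts and include deserts with few genes.

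In YAP-ERMS 10 of the 11 F3 peaks lay upstream of the start, and 7 of them formed a chain with gaps of at most 12500 bp that ran over 39.0 kb and ended 1.51 kb before the start. The peak nearest the start, at chr3:121423509-121424492 (mm9), lay 2.0 kb upstream with a score of 141, and the strongest of the chain lay 10.9 kb upstream with a score of 449. The highest of the locus were a pair farther away, at 70.7 kb upstream (chr3:121354701-121355990, score 859) and at 72.5 kb upstream (score 666). The farthest on each side were at 87.9 kb upstream, with a score of 157, and at 81.6 kb downstream, with a score of 302. Of the 11 peaks, 8 scored above the median of the list.

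Just outside the window of F3, a chain of 9 YAP-ERMS peaks began 105.5 kb upstream with a peak of score 2040 and rank 623. It scored higher than any F3 peak inside the window. In RD the nearest peak outside lay 142.8 kb downstream with a score of 94.9. The list of peaks does not say which gene such a region acts on, and the coding genes next to F3 by order on the human chromosome are SLC44A3 upstream and ABCD3 downstream.

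NT5E, the gene of CD73, had peaks on both sides in both cell types and none within 5 kb of its start. In RD all 6 peaks scored above the median of the list, with a median score of 660. The highest, at chr6:86169052-86169723 (hg19), lay 10.4 kb downstream with a score of 1327 and rank 650. It was flanked by peaks at 9.74 kb (score 224) and 15.1 kb (score 521), and the gap to the nearer of them was 172 bp. The other peaks were single. They lay 45.5 kb upstream (chr6:86113219-86113781, score 901), 87.7 kb upstream (score 403) and 67.1 kb downstream (chr6:86225832-86226294, score 799). The nearest peak to the start was at 9.74 kb, and 10.8% of positions over the genome had an RD peak that close.

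In YAP-ERMS the highest Nt5e peak, at chr9:88267348-88268778 (mm9), lay 46.1 kb downstream with a score of 3044. It ranked 134, in the top 0.285% of the list, and 1.01% of tiles held a peak that high. A second strong peak, at chr9:88262702-88263975, lay 41.3 kb downstream with a score of 1344. Upstream, 6 peaks formed a chain over 23.3 kb, from 54.0 to 30.7 kb before the start, and its highest (chr9:88174251-88175363, score 832) lay 47.2 kb upstream. No peak lay within 25 kb of the start, and the nearest was 31.2 kb upstream with a score of 110. At 46.8% of positions over the genome a YAP-ERMS peak was as close. The farthest peaks on each side were 88.7 kb upstream, with a score of 82.6, and 53.1 kb downstream, with a score of 110.

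The strongest NT5E peaks were therefore downstream of the start in both cell types, 10.4 kb away in RD cells and 46.1 kb away in YAP-ERMS cells. The coding genes next to it by order on the human chromosome are TBX18 upstream and SNX14 downstream, and the distances of these genes on hg19 and mm9 were not used here.

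GADD45A, the damage and growth arrest gene, had a peak just past its start in both lists. In RD it lay 1.56 kb downstream, at chr1:68152267-68152856 (hg19), with a score of 496 and rank 4005, in the top 17.7% of the list. In YAP-ERMS it lay 1.38 kb downstream, at chr6:66985052-66986195 (mm9), with a score of 581 and rank 7986, in the top 17.0%. These values are set side by side without a test, and whether the regions align between the genomes was not examined. A peak as close to a position was found at 2.16% of positions in RD and 4.72% in YAP-ERMS, and other gene starts were not compared.

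The other RD peaks of GADD45A lay mostly downstream. The highest, at chr1:68169852-68170480, was 19.2 kb downstream with a score of 858, beside one at 21.8 kb with a score of 138. A pair lay at 65.0 kb (chr1:68215659-68216359, score 558) and 74.6 kb (score 261). One more lay 2.47 kb downstream with a score of 228, and the single upstream peak was at 32.2 kb with a score of 181. The coding gene next to GADD45A in the downstream direction by order is GNG12, and SERBP1 is next upstream.

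In YAP-ERMS the 10 Gadd45a peaks were spread over both sides and none was in the top 10% of the list. The highest, at chr6:67052186-67053558, lay 65.9 kb upstream with a score of 709 and rank 6040, beside one at 68.6 kb with a score of 132. Peaks at 4.06 and 34.7 kb upstream had scores of 169 and 140. Downstream, peaks at 21.1, 44.9, 48.9, 64.6 and 93.4 kb had scores of 104, 125, 336, 84.8 and 103. So 3 of the 10 scored above the median of the list, and 5 of the 7 RD peaks scored above the median of theirs.

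Binding close to the start was found at 2 of the 4 genes in RD, AXL and GADD45A, and at 3 of 4 in YAP-ERMS, Axl, F3 and Gadd45a, when close means a midpoint within 5 kb. At scores of 160 or more F3 of YAP-ERMS dropped out, with its nearest peak 5.98 kb upstream, and 2 of 4 genes were left there. Of positions over the genome, 6.14% in RD and 14.4% in YAP-ERMS had a peak that close. These positions include deserts with few genes, so the shares do not compare the 4 starts with other gene starts. The nearest peak was the highest peak of its gene in 1 case, RD F3, where both peaks were weak. Over the 4 genes, 15 of the 20 RD peaks and 11 of the 38 YAP-ERMS peaks lay downstream of the start. In YAP-ERMS these were 1 of 11 at F3, 1 of 6 at Axl, 3 of 11 at Nt5e and 6 of 10 at Gadd45a. The share downstream over all genes was not computed, so these counts have no background. Chains of 5 or more peaks held 13 of the 38 YAP-ERMS peaks (34.2%), at F3 and Nt5e, against 17.6% of that list, and 0 of the 20 RD peaks, against 9.38% of that list. Peaks of 1 chain are neighbours and do not count as independent.

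Peak width at a given score also varied between the loci. In RD all 6 NT5E peaks were narrower than the median of the list at matched score, with a median of -0.23 log2 units. There 6 of the 7 GADD45A peaks were wider, with a median of 0.29, and 4 of the 5 AXL peaks, with a median of 0.20. Of the 2 RD peaks of F3, 1 was wider and 1 narrower. Over the 20 RD peaks, 9 were narrower and 11 wider than the matched median. In YAP-ERMS the median was -0.25 at Nt5e, -0.11 at F3 and -0.06 at both Axl and Gadd45a. Narrower peaks numbered 9 of 11 at F3, 7 of 10 at Gadd45a, 6 of 11 at Nt5e and 3 of 6 at Axl in that list. There, 25 of the 38 peaks were narrower than the matched median, and the 4228 bp Axl peak was the one peak over 2-fold wider, against 1.82% of the list. Whether the copy number of a region or its sequence moves with these widths was not tested.

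**Figure D4:**
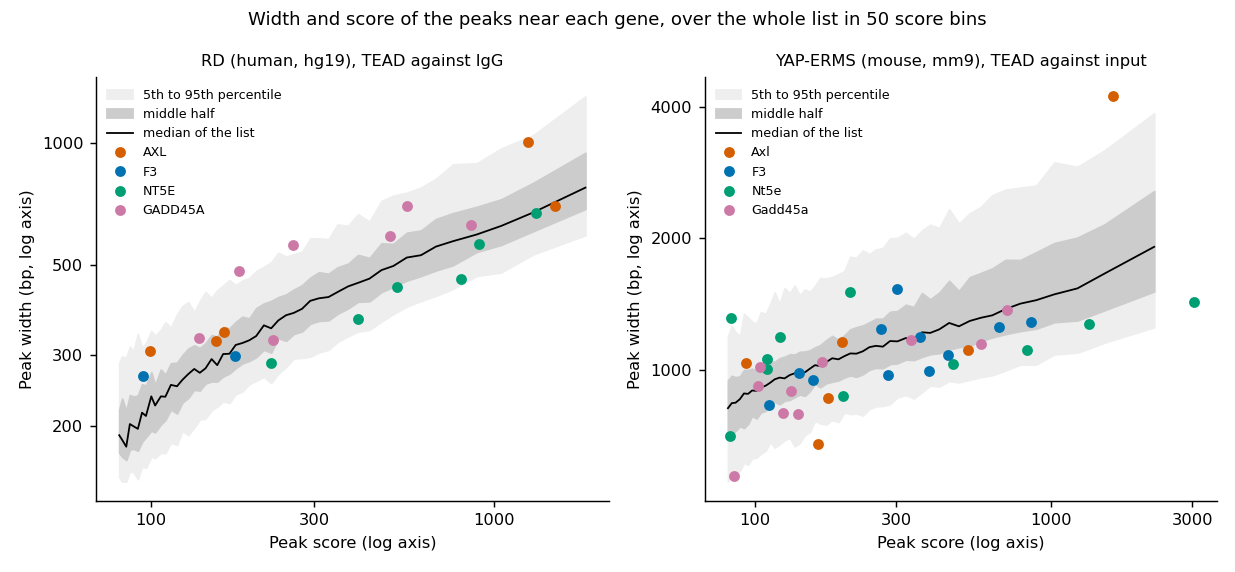
Width of every peak near the 4 genes (y, bp, log axis) against its score (x, log axis), for RD on the left and YAP-ERMS on the right; the line and the shaded bands are the median, the middle 50% and the 5th to 95th percentile of the whole list in 50 score bins. The NT5E points of RD lie on or under the line, and the Axl peak of 4228 bp lies above the bands.

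The limit of 100 kb set some of these counts. The RD peak of AXL just inside it lay at 91.4 kb, and the one just outside, with a score of 830, at 103.0 kb. At GADD45A in RD the limit fell between peaks at 74.6 and 105.3 kb, both downstream. At Gadd45a the farthest peak inside lay 93.4 kb downstream, and the nearest outside lay 101.8 kb upstream. At Nt5e the nearest outside lay at 112.0 kb, at Axl at 112.3 kb, and at NT5E in RD at 120.2 kb.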

How the data were processed

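ChIP-seq of TEAD was analysed from 1 deposited peak list per cell line. The authors used Bowtie2 with hg19 and mm9, per the submitters' processing notes. Peak names are those of MACS. Versions and the handling of duplicates: not given in the sources used here. Each peak has a deposited score, taken to be 10 times the peak's −log10 p, since its minimum of 80 equals the 1e-08 in the names of the lists, which also give IgG and input as controls. The members and lists were chosen with earlier results of these data known.

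Peaks were assigned by midpoint with Python 3.11.15, numpy 2.4.6 and pandas 2.3.3, and positions are 1-based. Upstream and downstream follow the known strand of each gene. Backgrounds were all 200 kb tiles and all positions every 10 kb up to the last peak of chromosomes 1 to 22 and X (mouse 1 to 19 and X). Width was compared within 50 score bins. Window counts were checked on simulated peaks. Named were the 4 genes, with up to 10 peaks each in full, otherwise the nearest, the 3 highest and the farthest on each side, plus the neighbouring genes from RefSeq (GRCh38.p14, names and order). The 18 other genes of the YAP signature, exons and introns need an annotation of hg19 and mm9, which was not used here.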

Additional observations from a re-analysis of the deposited data

How the results depend on the processing

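The totals moved by over 1.5 times with the other windows and with the score limits. The 1 exception was RD at scores of 160 or more, with 16 peaks. RD had 13 peaks within 50 kb, 35 within 200 kb and 13 above the median score, against 20 as reported. YAP-ERMS had 23 within 50 kb, 69 within 200 kb, 23 at scores of 160 or more and 18 above the median score, against 38. Counting by overlap, joining peaks within 1 kb and moving the starts by 500 bp kept both totals within 1.5 times. The highest peak of a gene was the same one in 45 comparisons and another one in 3, leaving out the score limits, which cannot change it: F3 of YAP-ERMS had a highest score of 449 within 50 kb and 2040 within 200 kb, and Gadd45a 581 within 50 kb. Above the median score, RD had 0 peaks near F3. At scores of 160 or more, and above the median score, the nearest RD peak of AXL lay 4.52 kb downstream. That of F3 in YAP-ERMS lay 5.98 kb upstream. YAP-ERMS genes with a peak within 5 kb then numbered 2, against 3, and RD genes 2, as reported. Under both limits the nearest Nt5e peak of YAP-ERMS lay 37.3 kb upstream, against 31.2 kb. Above the median score the nearest RD peak of F3 lay 215.3 kb downstream, against 38.6 kb upstream.

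The share of tiles as rich as a locus depended on the tiles. With tiles that hold a peak it was 20.3% for AXL, 64.6% for F3, 14.3% for NT5E and 9.79% for GADD45A in RD, and 37.7% for Axl, 10.2% for F3 and for Nt5e and 13.6% for Gadd45a in YAP-ERMS. In windows centred on each peak, added after the data were seen, it was 50.3%, 89.2%, 40.1% and 32.0% for AXL, F3, NT5E and GADD45A in RD, and 69.2%, 28.8%, 28.8% and 35.6% for the same genes in YAP-ERMS. On the gene's own chromosome, also added, it was 17.9% for AXL, 40.5% for F3 and 6.50% for GADD45A in RD and 22.4% for Axl.

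Windows on annotated gene starts were not run, because no annotation of these builds was used. No paired analysis was possible because each group has 1 library and no result comes from a test. Sequencing depth is unknown, so a missing peak is one not listed at this threshold and not absent binding.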
